A study of Homo sapiens with 4 samples.

Results

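The comparison described here is that of OVCA420 cells after 3 days against OVCA420 cells after 1 day of treatment with 10 ng/mL TGF-β1. The OVCA420 line derives from epithelial ovarian carcinoma, and the cytokine TGF-β1 induces epithelial-mesenchymal transition (EMT) in it. The study collected 4 single-cell RNA-seq libraries, namely untreated cells (Ctrl) and cells treated with 10 ng/mL TGF-β1 for 1, 3 and 7 days (1-day, 3-day and 7-day), with 1 library each. All libraries came from the same line with no genetic change named, and the study timed the treatments so that they were harvested together. TGF-β1 and medium were renewed during the longer treatments and cells were split when dense, so time since renewal and cell density cannot be told apart from days of TGF-β1. The cells of the 1-day and 3-day matrices that showed over 200 genes and had no more than 20% of their unique molecular identifiers (UMIs) on mitochondrial genes were taken, which gave 1642 of the 3144 cells retained in the whole series, 937 at 1-day and 705 at 3-day.

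TGF-β1 binds the type II and type I receptor kinases at the cell surface, which phosphorylate SMAD2 and SMAD3. These move to the nucleus with SMAD4 and switch on genes of matrix, adhesion and their own inhibition, within hours, while changes in cell shape, secretion and division build up over days. In epithelial cells the cytokine is also known for halting division in G1, by raising CDK inhibitors and by lowering MYC and ID proteins. A comparison of day 3 with day 1 shows which genes kept their day 1 level and which moved, whether further or back towards the untreated level.

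The files hold raw UMI counts for every gene in every cell. For each gene, the UMIs of the retained cells of a library were summed and scaled by the library's total to CPM (counts per 1e6 UMIs), and the log2 ratio of 3-day to 1-day was computed with a 95% interval that covers counting error only. With 1 library per time point there is no replicate check, no test was made, and a difference between libraries cannot be told apart from a difference between times. The retained cells held 32949874 UMIs at 1-day and 32139723 at 3-day, with a median of 32393 and 43553 per cell, so the median 3-day cell was 1.34 times as deep. Shares of cells with a UMI were therefore taken on cells brought down at random to 18000 UMIs (thinned cells), of which there were 900 and 677, with exact binomial intervals. No cell type in a single line lacks these genes, so the share that free RNA would give was not measured. The first 945 of 2601 listed 1-day cells and the first 712 of 2253 listed 3-day cells, in barcode order, were read, and 2 cell barcodes were common to the retained cells of both libraries.

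The cells were epithelial by their markers in both libraries. The 10 markers of an ovarian epithelial line together held 7036 and 5656 CPM with none at 0, although *MUC16*, which encodes the CA125 antigen, was at 0.425 and 0.124 CPM. Lists of fibroblast, immune, endothelial and smooth muscle markers summed to between 0.455 and 4.36 CPM in each of both libraries, nearly all of the immune sum being *CD79A*, and *COL3A1*, *PTPRC* and *CLDN5* were at 0 in both. *VIM*, which encodes the mesenchymal filament vimentin, was nearly absent, with 0.243 CPM at 1-day and 0.156 CPM at 3-day. The doublet caller marked 1.07% of 1-day and 1.42% of 3-day cells, and the median mitochondrial share was 7.42% and 6.22%.

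Most genes differed little between day 1 and day 3. Of 33694 genes, 9423 had a mean of at least 5 CPM over both libraries and were compared, and 7553 of them (80.2%) lay within 1.5-fold. At 3-day 405 genes were at least 2-fold higher (4.3% of those compared) and 225 were at least 2-fold lower (2.39%). The median log2 ratio over all compared genes was 0.11, which is the level against which the lists below are read. Of the higher genes 131 were under 5 CPM at 1-day, and of the lower genes 67 were under 5 CPM at 3-day, so these entered only through the library in which they were high. Genes at least 3-fold apart numbered 116 higher and 73 lower.

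**Figure D1:**
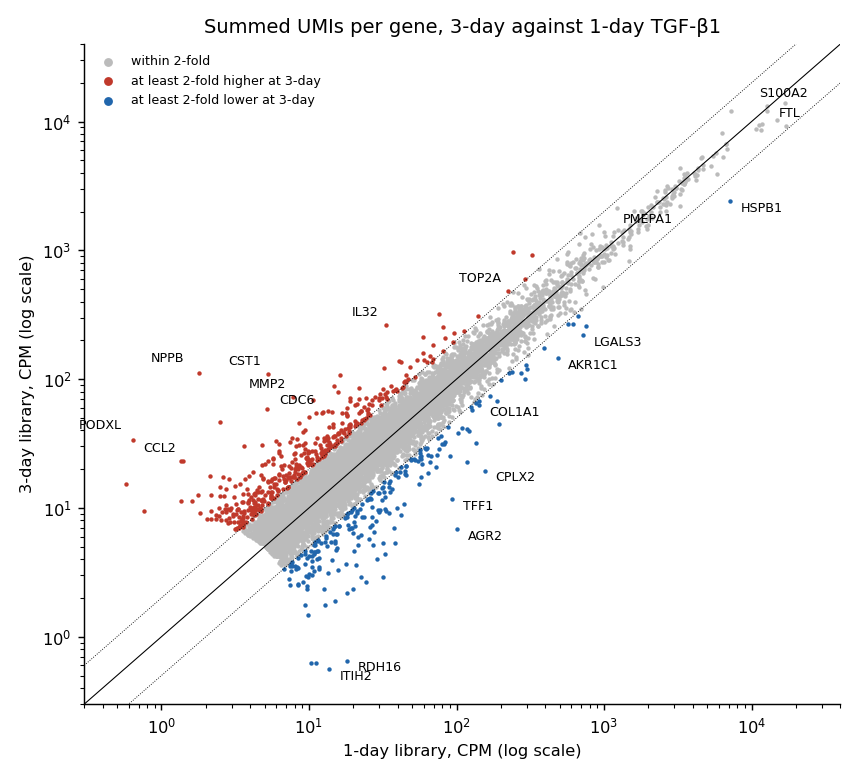
Each point is 1 of the 9423 genes compared, with CPM of summed UMIs in the 1-day library on the x axis and in the 3-day library on the y axis, both on log scales. The solid line marks equal levels and the dotted lines 2-fold, with 405 genes higher (red) and 225 lower (blue). *NPPB*, *PODXL* and *CST1* lie far above the lines and *RDH16*, *AGR2* and *CPLX2* far below, while *S100A2*, *FTL* and *PMEPA1* lie within them.

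The gene groups that stood out were DNA replication, cell division, NF-κB targets with chemokines, and pericellular proteases, all higher at 3-day, and detoxifying enzymes of the NRF2 pathway, lower at 3-day. Because 2 of these groups have well-known control sequences, the promoters of their members were searched. E2F factors switch on replication genes when RB1 lets them go at the G1/S boundary, and they bind TTTNNCGC. NF-κB dimers bind GGG, any 2 bases, then TTTCC. Each motif was searched on both strands in the window from 250 bases before to 50 bases after the start of each gene (RefSeq, GRCh38.p14). Of the 33 replication genes compared, 28 matched a promoter, and 17 of these 28 (60.7%) held the E2F motif against 6.90% of all 27305 promoters. Among the 9423 compared genes only 7229 matched a promoter, so their share of 11.3% is incomplete. It was present in 15 of 24 members that were at least 2-fold higher and in 2 of the 4 that were not. Of the 21 NF-κB genes, 19 matched, and 6 of these 19 (31.6%) held the NF-κB motif against 1.92% of all promoters, 3 among the 6 members that were at least 2-fold higher and 3 among the other 13. The windows of *MCM10*, *TNF* and *TRAF1*, which were also at least 2-fold higher, hold no match to the motif of their group. A match is a description of the sequence and not a bound site. Both groups are known for these motifs, and the NF-κB list was made of its subunits and feedback targets. Their share above that of all promoters therefore follows from how the lists were made. It is no result of comparing day 3 with day 1.

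The promoters of the 3 replication genes of largest ratio whose window holds the motif are given from 250 bases before to 20 bases after the gene start, 5′ to 3′ on the gene's strand, with the E2F motif on either strand in capitals.
CDT1 (chr16:88803539-88803808, plus strand): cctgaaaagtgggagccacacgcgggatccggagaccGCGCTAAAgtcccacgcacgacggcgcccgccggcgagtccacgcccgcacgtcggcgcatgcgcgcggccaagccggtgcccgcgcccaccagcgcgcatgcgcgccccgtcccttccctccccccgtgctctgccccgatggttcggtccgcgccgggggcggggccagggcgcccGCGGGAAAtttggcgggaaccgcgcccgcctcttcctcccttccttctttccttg
CDC6 (chr17:40287629-40287898, plus strand): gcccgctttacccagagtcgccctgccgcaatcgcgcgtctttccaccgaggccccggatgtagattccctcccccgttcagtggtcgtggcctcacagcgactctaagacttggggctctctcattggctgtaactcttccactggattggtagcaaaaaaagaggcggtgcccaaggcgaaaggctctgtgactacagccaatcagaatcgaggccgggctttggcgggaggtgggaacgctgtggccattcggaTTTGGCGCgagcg
CLSPN (chr1:35769959-35770228, minus strand): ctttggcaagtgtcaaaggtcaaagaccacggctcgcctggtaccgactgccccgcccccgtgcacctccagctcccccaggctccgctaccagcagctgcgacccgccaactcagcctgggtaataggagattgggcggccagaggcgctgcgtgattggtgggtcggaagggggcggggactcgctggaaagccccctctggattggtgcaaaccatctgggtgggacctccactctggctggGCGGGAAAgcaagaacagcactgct

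The same is given for the 3 NF-κB genes of largest ratio whose window holds that motif, with the NF-κB motif in capitals. These encode an inhibitor of cell death (*BIRC3*) and 2 proteins that switch NF-κB off again (*TNFAIP3* and *NFKBIA*), and all 3 are standard NF-κB targets.
BIRC3 (chr11:102317234-102317503, plus strand): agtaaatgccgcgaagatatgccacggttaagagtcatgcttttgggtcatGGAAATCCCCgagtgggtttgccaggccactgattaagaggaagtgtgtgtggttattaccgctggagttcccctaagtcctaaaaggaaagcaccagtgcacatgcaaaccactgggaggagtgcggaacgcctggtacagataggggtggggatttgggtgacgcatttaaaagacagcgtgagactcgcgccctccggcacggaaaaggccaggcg
TNFAIP3 (chr6:137867009-137867278, plus strand): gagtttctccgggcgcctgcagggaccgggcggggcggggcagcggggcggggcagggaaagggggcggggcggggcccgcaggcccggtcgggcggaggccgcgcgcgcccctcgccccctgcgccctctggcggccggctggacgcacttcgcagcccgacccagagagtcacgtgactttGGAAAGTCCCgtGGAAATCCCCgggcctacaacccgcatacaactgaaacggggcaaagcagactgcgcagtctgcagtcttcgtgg
NFKBIA (chr14:35404730-35404999, minus strand): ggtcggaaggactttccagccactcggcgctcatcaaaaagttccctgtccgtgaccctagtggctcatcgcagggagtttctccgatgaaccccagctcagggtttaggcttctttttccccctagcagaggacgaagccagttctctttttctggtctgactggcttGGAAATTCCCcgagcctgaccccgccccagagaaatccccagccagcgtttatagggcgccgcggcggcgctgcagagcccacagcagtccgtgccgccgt

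The DNA replication group had the highest median ratio of the 38 lists. Of its 33 genes compared, 27 were at least 2-fold higher at 3-day and none lower, the median log2 ratio was 1.43 and all 33 ratios were above 0. *CDT1*, which loads the replicative helicase on origins, was at 6.25 CPM at 1-day and 31.6 CPM at 3-day, for a log2 ratio of 2.34 (95% interval 2.12 to 2.56). *CDC6*, its partner in origin licensing, was at 12.2 and 54.7 CPM (2.16, interval 2.00 to 2.32). The checkpoint mediator *CLSPN* was at 12.5 and 55.4 CPM (2.15, interval 2.00 to 2.31). These 3 were picked by their ratio, and other holders of the motif were less far apart, such as *MCM7* and *GINS3* with log2 ratios of 0.97 and 0.61. *MCM10* had 2.67 and 12.4 CPM and *UHRF1*, which guides maintenance methylation of new DNA, 5.28 and 23.0 CPM. Among the enzymes of nucleotide supply, *RRM2* was at 32.0 and 122.4 CPM and *TYMS* at 16.8 and 54.3 CPM, whereas *RRM1* and *TK1* were less than 2-fold apart, with log2 ratios of 0.70 and 0.87. The sliding clamp *PCNA* was at 59.2 and 160.3 CPM (1.44, interval 1.36 to 1.51).

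The untreated library sets these levels in context. In Ctrl, *CDT1*, *CDC6*, *RRM2* and *PCNA* were at 40.4, 76.2, 150.7 and 161.8 CPM, so the 1-day library was the lowest of the 4 for each of them. At 7-day they were at 37.5, 68.5, 167.2 and 148.8 CPM. The ratio of 3-day to 1-day shares the 1-day library with that of 1-day to Ctrl, and the levels are given side by side for that reason.

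Regulators of the G1/S transition were also higher. Of 16 cyclins, CDKs and inhibitors compared, 5 were at least 2-fold higher and none lower (median log2 ratio 0.80). *CCNE2*, the cyclin that drives CDK2 at the start of S phase, was at 2.19 CPM at 1-day and 12.6 CPM at 3-day (2.53, interval 2.16 to 2.91), and *CCNE1* at 7.41 and 32.3 CPM (2.13, interval 1.92 to 2.33). *E2F1* itself was at 9.98 and 50.9 CPM (2.35, interval 2.18 to 2.53). *CDK2* and the RB1 relative *RBL1* were also over the limit, with log2 ratios of 1.31 and 1.51. None of the CDK inhibitors compared was at least 2-fold apart, although *CDKN2B* was lower at 3-day. *CDKN1A* (p21) was at 178.5 CPM at 1-day and 170.4 CPM at 3-day, *CDKN2A* (p16) at 718.8 and 835.2 CPM, and *CDKN2B* (p15), a direct TGF-β target that blocks CDK4, at 77.1 and 44.5 CPM, with 9.37 CPM in Ctrl. *MYC* was at 74.5 and 57.3 CPM.

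Genes of mitosis were higher by less. Of 28 compared, 11 were at least 2-fold higher and none lower, with a median log2 ratio of 0.89 and all 28 ratios above 0. *TOP2A*, which untangles sister chromatids, was at 222.9 CPM at 1-day and 482.5 CPM at 3-day (1.11, interval 1.07 to 1.15). *CDK1*, the mitotic kinase, was at 14.7 and 42.4 CPM (1.53, interval 1.38 to 1.69), and *UBE2C*, which tags mitotic cyclins for destruction, at 83.9 and 208.4 CPM (1.31, interval 1.25 to 1.38). Cyclin B1 (*CCNB1*), *CDC20* and securin (*PTTG1*) were within 2-fold (0.56, 0.69 and 0.26). The count for this group depended on the cells read, with 17 members at least 2-fold higher in the first part of the cells of each library in barcode order and 4 in the second part, whereas the replication group gave 27 and 25.

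Per cell, more 3-day cells held several UMIs of these genes, while the mean among such cells differed less. After thinning, 20.9% of 1-day cells (interval 18.3% to 23.7%) and 43.0% of 3-day cells (39.2% to 46.8%) had at least 3 *TOP2A* UMIs, and the cells that did held a mean of 15.0 and 16.4. For *PCNA* the shares were 11.4% and 42.1% with means of 4.91 and 5.88, and for *UBE2C* 9.33% and 29.99% with means of 10.6 and 9.34. These means leave out all cells under 3 UMIs, so they cannot separate more expressing cells from higher levels per cell. Summed over the replication list, the median 1-day cell held 3.18 UMIs per 10000 and the median 3-day cell 13.7, and 46.0% of 3-day cells lay above the 90th percentile of 1-day cells. Phases called with the cell cycle lists of Seurat on the thinned cells put 72.4% of 1-day cells (69.4% to 75.3%) and 49.8% of 3-day cells (45.9% to 53.6%) in G1, with 8.78% and 15.7% in S and 18.8% and 34.6% in G2M. Of the Ctrl and 7-day cells 29.7% and 40.6% were called G1. These phase calls read many of the same genes as the lists and are not separate evidence.

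**Figure D2:**
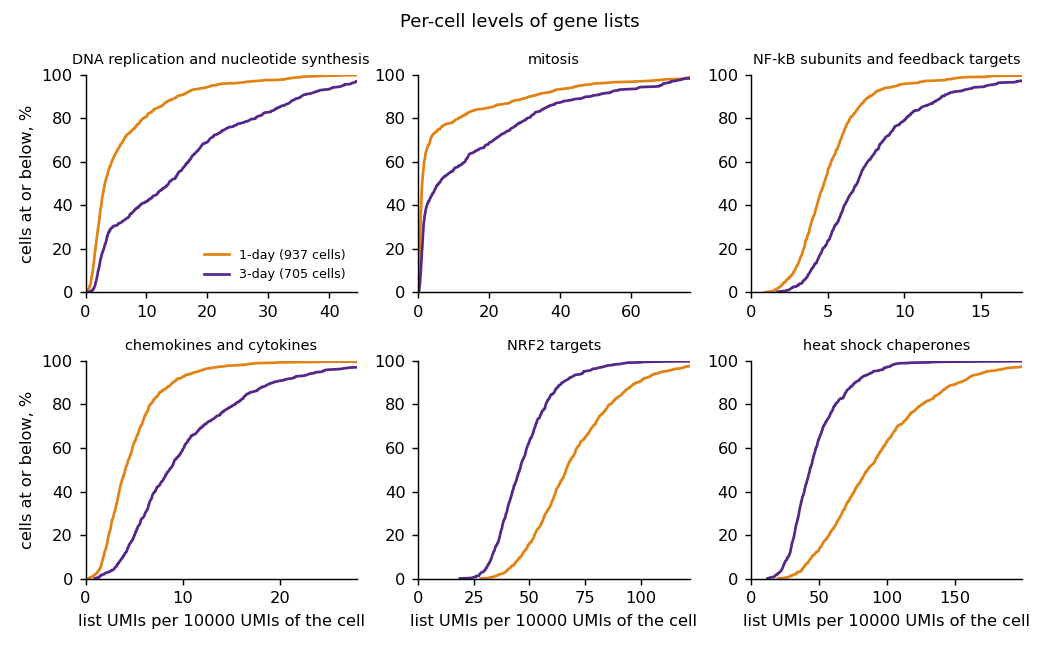
Each panel shows, for 1 gene list, the percentage of cells (y axis) at or below a given level (x axis, UMIs of the list per 10000 UMIs of the cell) for the 937 1-day and 705 3-day cells. The 3-day curve lies to the right for replication, mitosis, NF-κB and chemokines, and to the left for NRF2 targets and heat shock chaperones, where *HSPB1* makes 7132 of 9021 CPM of the list at 1-day.

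The genes of largest ratio were not cell cycle genes. The 12 genes of highest log2 ratio lay between 3.06 and 5.96 and encode secreted or surface proteins for the most part. *NPPB*, the precursor of brain natriuretic peptide (chr1:11857464-11858945 on the minus strand, GENCODE release 44, GRCh38), was at 1.79 CPM at 1-day and 111.5 CPM at 3-day, for a log2 ratio of 5.96 (interval 5.59 to 6.36). A UMI was found in 1.44% of thinned 1-day cells and 35.3% of thinned 3-day cells. In Ctrl it had 0 UMIs, which allows up to 0.100 CPM, and at 7-day 36.8 CPM, so the 3-day library was the highest of the 4. *PODXL*, a sialomucin that keeps membranes apart, was at 0.637 and 33.8 CPM (5.73, interval 5.11 to 6.43) and at 90.7 CPM at 7-day. The protease inhibitors *CST1* and *CST4* (cystatins SN and S, of closely similar sequence, so reads may be shared between them) were at 5.28 and 109.3 CPM and at 2.49 and 46.5 CPM.

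Others of the 12 act in matrix remodelling, adhesion and growth. *MMP2*, the gelatinase that cuts basement membrane collagen (chr16:55389700-55506691 on the plus strand), was at 7.80 CPM at 1-day and 72.1 CPM at 3-day (3.21, interval 3.02 to 3.40), and in 8.44% and 49.2% of thinned cells. *FXYD5* (dysadherin), which weakens cell contacts, was at 5.16 and 58.5 CPM, in 5.0% and 49.5% of thinned cells. The growth factor *FGF5* was at 3.61 and 30.4 CPM, and *LCP1*, an actin-bundling plastin, at 1.37 and 23.0 CPM. *NNMT* and *NFE2L3* were at 0.759 and 9.49 CPM and at 1.37 and 11.4 CPM. A few cells made up most of the remaining 2. For *G0S2*, an inhibitor of lipolysis, the 10 cells with the most UMIs held 90.1% of its 3-day UMIs (15.4 CPM against 0.577 CPM), and for the monocyte attractant *CCL2* 10 cells held 72.0% (23.2 CPM against 1.40 CPM). Among the others of the 12 this share ran from 10.1% for *MMP2* to 44.2% for *CST4*, with 39.5% for *CST1*, 35.5% for *PODXL* and 31.3% for *NPPB*.

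The 12 genes of lowest log2 ratio ran from -2.98 to -4.80. *AGR2*, an ER disulfide isomerase of secretory epithelia (chr7:16791811-16833433 on the minus strand), was at 100.3 CPM at 1-day and 6.85 CPM at 3-day, for a log2 ratio of -3.87 (interval -4.08 to -3.68), and in 69.0% and 8.27% of thinned cells. *TFF1*, a trefoil peptide of mucus, was at 93.2 and 11.7 CPM (-2.99, interval -3.15 to -2.83), and *CPLX2*, which clamps vesicle fusion, at 155.2 and 19.5 CPM (-2.99, interval -3.11 to -2.87). The secretory genes of the list were already below Ctrl at 1-day for *AGR2* and *TFF1* (316.3 and 138.3 CPM in Ctrl) but not for *CPLX2* (99.5 CPM). *RDH16*, a retinol dehydrogenase, showed another course, with 1.37 (Ctrl), 18.1 (1-day), 0.653 (3-day) and 0.118 CPM (7-day). The receptor *FGFR1* had 6.03, 31.9, 2.92 and 2.40 CPM in the same order, and the adipokine *FAM132A* 1.07, 18.1, 2.18 and 0.433 CPM, so for these 3 the 1-day library was the highest. *ITIH2*, *APOH*, *CEACAM6*, *AQP3*, *GSTA1* and *CEMIP* were at 10.3 to 24.4 CPM at 1-day and at 0.560 to 2.68 CPM at 3-day. For *CEACAM6* 10 cells held 49.1% of the 1-day UMIs.

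**Figure D3:**
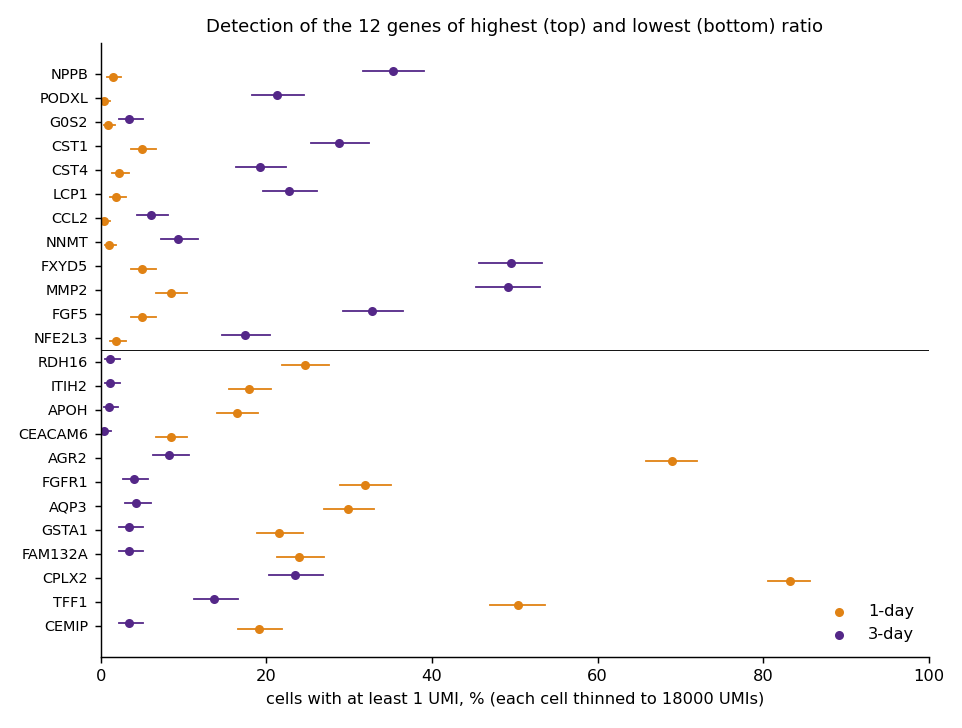
The percentage of cells with at least 1 UMI is shown for the 12 genes of highest ratio (above the line) and the 12 of lowest ratio (below it), in cells thinned to 18000 UMIs each (900 1-day and 677 3-day cells), and bars are exact binomial 95% intervals. *FXYD5* and *MMP2* were found in about 49% of 3-day cells and under 9% of 1-day cells, *G0S2* in 3.40% of 3-day cells, and *CPLX2* in 83.2% of 1-day and 23.5% of 3-day cells.

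Genes of NF-κB and of chemokines and cytokines were higher at 3-day as groups. NF-κB factors are held in the cytoplasm by inhibitors and on release switch on inflammatory genes together with their own inhibitors. Of 21 NF-κB genes compared, 6 were at least 2-fold higher and none lower, 19 had a ratio above 0, and the median log2 ratio was 0.64. *TNF* was at 2.61 CPM at 1-day and 17.4 CPM at 3-day (2.73, interval 2.40 to 3.08), and in 2.0% and 17.0% of thinned cells. *TRAF1*, an adaptor of TNF receptors, was at 4.80 and 31.0 CPM (2.69, interval 2.45 to 2.94). The 3 genes of the printed windows were picked from the members at least 2-fold higher, so their direction was set by that choice. *TNFAIP3* had a log2 ratio of 1.87, *BIRC3* was at 2.15 and 8.18 CPM and *NFKBIA* at 29.7 and 70.8 CPM. The adhesion molecule *ICAM1* was at 2.91 and 9.71 CPM. The subunits were within 2-fold, from 0.24 for *NFKB1* to 0.59 for *RELB*, as was *BCL3* (0.00), and *NFKBIZ* had a ratio of -0.87.

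Of the 16 chemokines and cytokines compared, 6 were at least 2-fold higher and none lower (median 0.88). *IL32*, a proinflammatory cytokine (chr16:3065297-3082192 on the plus strand), was at 33.2 CPM at 1-day and 265.2 CPM at 3-day (3.00, interval 2.91 to 3.09), and in 22.6% and 77.7% of thinned cells. The T cell attractant *CCL5* was at 1.61 and 11.4 CPM, with 69.9% of its 3-day UMIs in 10 cells. The neutrophil attractants *CXCL2* and *CXCL8* were at 3.67 and 16.7 CPM and at 85.4 and 156.9 CPM. *IL11*, a gp130 cytokine and a known TGF-β target, was at 63.1 and 135.1 CPM (1.10, interval 1.02 to 1.17), having been at 0.533 CPM in Ctrl. It was at 102.6 CPM at 7-day, whereas *CCL5*, *CXCL2*, *CXCL8* and *IL32* were higher still at 7-day, with 97.7, 93.5, 486.5 and 395.3 CPM at 7-day. Over cells of the same library, all thinned to the same depth, the summed levels of the NF-κB and chemokine lists, which share no gene, had a Spearman rho of 0.30 and a Pearson r of 0.54 at 1-day (n = 900 cells) and of 0.57 and 0.57 at 3-day (n = 677 cells). The replication and mitosis lists had a rho of 0.70 and 0.69 and an r of 0.57 and 0.38. These are descriptions over cells of 1 library, which are not replicates of a time point.

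**Figure D4:**
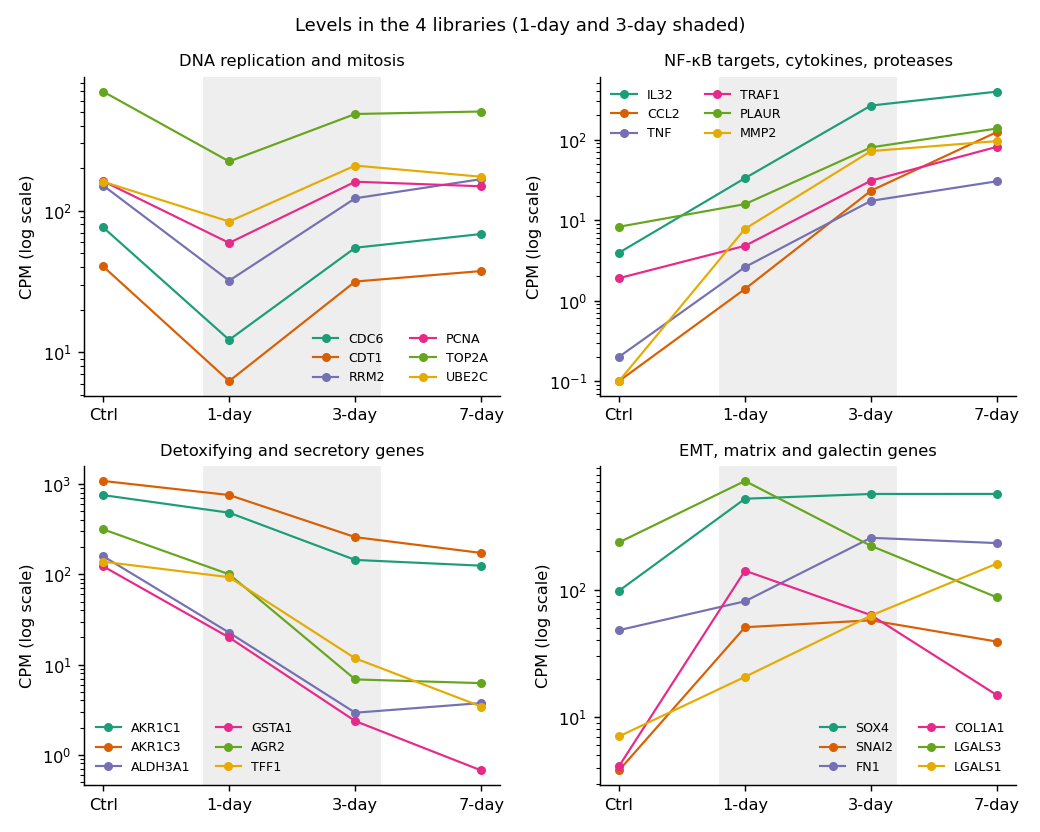
Each panel shows the CPM (y axis, log scale) of 6 genes in the 4 libraries (x axis), with the 1-day and 3-day libraries shaded and 1 library per point. Genes with 0 UMIs in Ctrl (*CCL2* and *MMP2*) are drawn at the level of 3 UMIs. Replication and mitosis genes are lowest at 1-day, the NF-κB, cytokine and protease genes are higher at 3-day than at 1-day and at 7-day than at 3-day, the detoxifying and secretory genes are lower at 3-day than at 1-day, and *LGALS3* and *COL1A1* peak at 1-day.

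The proteolytic system of the cell surface was the next group. Urokinase, bound to its receptor, turns plasminogen into plasmin, which degrades matrix and activates metalloproteinases. Of 16 genes compared, 6 were at least 2-fold higher and 1 lower (median 0.72). The receptor *PLAUR* was at 15.8 CPM at 1-day and 80.2 CPM at 3-day (2.34, interval 2.21 to 2.48), and urokinase itself, *PLAU*, at 8.50 and 45.9 CPM (2.43, interval 2.25 to 2.62). *MMP2*, described above, *MMP9* (4.19 and 19.1 CPM, with 53.7% of the 3-day UMIs in 10 cells), *ADAM19* (3.40 and 15.3 CPM) and *ADAMTS1* (13.4 and 56.8 CPM) were the other proteases. The protease inhibitor *SERPINE2* was at 677.3 and 1117 CPM (0.72). The single lower gene was *MMP7* (matrilysin), at 20.2 and 7.84 CPM (-1.37, interval -1.58 to -1.15).

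Most immediate targets of TGF-β were within 2-fold between the days, but more of them were lower than higher. Of 16 feedback and direct targets compared, none was at least 2-fold higher and 2 were lower, and 12 of 16 ratios were below 0 (median -0.14). Over all genes compared 4.3% were at least 2-fold higher and 2.39% lower, with a median of 0.11. *PMEPA1*, which retains SMADs in the cytoplasm, was at 66.8 CPM in Ctrl, 1501 CPM at 1-day and 1385 CPM at 3-day (-0.12). The inhibitory *SMAD7* was at 4.33, 27.0 and 28.5 CPM and *TGFBI* at 14.5, 475.7 and 471.4 CPM. The 2 lower genes were *BAMBI*, a decoy receptor (62.3 and 28.7 CPM), and *ID2*, an inhibitor of basic helix-loop-helix factors (135.8 and 65.7 CPM). None of 20 ligands, receptors and SMADs was 2-fold apart, from *BMP4* (-0.91) to the activin trap *FST*, which was at 288.2 and 536.1 CPM (0.90, interval 0.86 to 0.93). The receptors *TGFBR1* and *TGFBR2* were at 81.7 and 75.9 CPM and at 63.6 and 113.8 CPM.

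Among matrix and adhesion genes few members of each list were 2-fold apart. *FN1* (fibronectin), one of the genes the study names, was at 81.1 CPM at 1-day and 255.7 CPM at 3-day (1.66, interval 1.59 to 1.72), and *TNC* (tenascin C) at 11.2 and 54.4 CPM (2.28, interval 2.12 to 2.45). The laminin chains *LAMA3* and *LAMB3* were at 52.0 and 54.4 CPM and at 298.4 and 278.6 CPM. *ITGA5*, the fibronectin receptor subunit, was at 4.22 and 12.8 CPM, and the other 7 integrins compared were within 2-fold, *ITGB1* with 817.1 and 1124 CPM. *COL1A1* moved the other way, with 141.0 CPM at 1-day and 63.1 CPM at 3-day (-1.16, interval -1.24 to -1.08), and was the one gene at least 2-fold apart among the 12 collagens and collagen-modifying enzymes compared. Its level was 4.10 CPM before treatment and 14.8 CPM by 7-day, so the 1-day library was the highest of the 4. *COL1A2*, the partner chain of type I collagen, had 0.0303 CPM at 1-day and 0 UMIs at 3-day.

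Of the transcription factors and junction proteins by which EMT is followed, few were 2-fold apart between the days. *SOX4* was at 518.4 CPM at 1-day and 564.9 CPM at 3-day (0.12), with 98.0 CPM in Ctrl, and *SNAI2* (Slug) at 50.7 and 57.5 CPM (0.18), with 3.80 CPM in Ctrl. Of 9 mesenchymal factors compared, *ETS1* (26.8 and 68.6 CPM, 1.36) and the chromatin protein *HMGA2* (29.7 and 69.1 CPM, 1.22) were at least 2-fold higher and none lower. *ZEB1*, *ZEB2* and *TWIST1* stayed under 0.5 CPM in both libraries, and *CDH2* (N-cadherin) was at 0.212 and 1.62 CPM. Of 27 genes of cadherins, desmosomes and tight junctions, *CDH1* (E-cadherin) was at 118.6 and 94.6 CPM (-0.33) and *EPCAM* at 356.5 and 361.1 CPM (0.02). The desmosomal *DSP* was at 132.7 and 70.1 CPM (-0.92), and *CLDN10* (9.17 and 2.64 CPM) was alone past 2-fold. Of 14 epithelial factors compared, 7 had a ratio above 0 and 7 below. The pioneer factor *FOXA1* was at least 2-fold higher (12.4 and 27.9 CPM) and none was 2-fold lower. The splicing factor *ESRP1* was at 33.1 and 39.0 CPM, and *TP63* had a log2 ratio of -0.47. Of 12 keratins, *KRT19* was at 989.5 and 518.8 CPM (-0.93), *KRT8* at 1495 and 1029 CPM, *KRT15* at the limit (26.2 and 13.04 CPM), and *KRT81* higher (1.82 and 9.09 CPM). For *KRT81* 10 cells held 72.3% of the 3-day UMIs, and its log2 ratio of 2.32 was 1.01 in G1 cells only.

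Actin genes and targets of the mechanosensitive factors YAP and TEAD showed a like split. *CTGF* and *CYR61*, their best-known targets, were at 521.5 and 557.0 CPM and at 331.6 and 418.5 CPM, with 12.9 and 25.4 CPM in Ctrl. *ANKRD1*, another such target, was at 14.7 and 89.0 CPM (2.59, interval 2.45 to 2.74), and *AMOTL1*, *AMOTL2* and *CRIM1* were also at least 2-fold higher, 4 of 16 genes in all (median 0.25). *MYLK*, the kinase of myosin light chain, was at 2.12 and 17.6 CPM (3.05, interval 2.69 to 3.43), and its substrate *MYL9* at 2.46 and 9.99 CPM, whereas the other 18 of 20 actin genes compared were within 2-fold, *TPM1* with 1920 and 1546 CPM. Of 13 genes of EGF receptors, ligands and MAPK feedback, 3 were at least 2-fold higher, namely *HBEGF* (14.8 and 36.4 CPM) and the phosphatases *DUSP4* (8.16 and 30.3 CPM) and *DUSP5* (7.16 and 17.5 CPM), and *EGFR* was at 227.8 and 234.5 CPM. Of 18 immediate early genes, *IER5* and *DUSP1* were higher and *FOSB* lower (median -0.07), and *JUN* was at 235.9 and 138.0 CPM (-0.77).

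Lower at 3-day were above all the targets of NRF2, the factor that drives antioxidant and detoxifying enzymes. Of 19 compared, 5 were at least 2-fold lower and none higher, 17 ratios were below 0, and the median log2 ratio was -0.50. The aldo-keto reductase *AKR1C1* was at 483.6 CPM at 1-day and 144.8 CPM at 3-day (-1.74, interval -1.79 to -1.69), *AKR1C3* at 759.4 and 259.1 CPM (-1.55, interval -1.59 to -1.52) and *AKR1C2* at 238.6 and 114.1 CPM. These 3 are closely similar in sequence, so how reads were split between them is uncertain. *ALDH3A1*, an aldehyde dehydrogenase, was at 22.6 and 2.92 CPM (-2.95, interval -3.28 to -2.64). The glutathione transferase *GSTA1*, among the 12 lowest genes, was at 19.97 and 2.36 CPM. Not all members were lower, since *TXNRD1* (thioredoxin reductase) was at 336.9 and 537.4 CPM (0.67) and *GCLM* at 283.4 and 309.1 CPM. *SLC7A11* was nearly level, at 329.1 and 327.3 CPM. Of 3-day cells, 9.08% lay above the median 1-day cell for the summed list. The list summed to 11726 (Ctrl), 6967 (1-day), 4780 (3-day) and 4396 CPM (7-day), so it was already below Ctrl at 1-day.

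*HSPB1* of the heat shock list, most ER chaperone and stress genes and the ferritin chains were lower as well. *HSPB1*, the small heat shock protein HSP27 (chr7:76302673-76304295 on the plus strand), measured 833.9 (Ctrl), 7132 (1-day), 2421 (3-day) and 756.1 CPM (7-day), a log2 ratio of 3-day to 1-day of -1.56 (interval -1.57 to -1.55). The other 13 heat shock genes compared had ratios between 0.07 and 0.51. Of 23 ER chaperones and stress genes, 19 had a ratio below 0 (median -0.47), with *HSPA5* (BiP) at 392.6 and 174.0 CPM (-1.17, interval -1.22 to -1.13), *MANF* at 304.0 and 152.7 CPM (-0.99) and *HSP90B1* at 429.1 and 295.1 CPM, while *PSAT1*, of serine synthesis, was at least 2-fold higher (8.56 and 21.6 CPM). The ferritin chains *FTL* and *FTH1* were at 17046 and 9240 CPM (-0.88) and at 14956 and 10325 CPM (-0.53), and the metallothionein *MT2A* at 7250 and 12055 CPM (0.73).

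The galectins split in direction. *LGALS3* (chr14:55124110-55145423 on the plus strand), the galectin the study follows, measured 235.3 (Ctrl), 715.0 (1-day), 220.8 (3-day) and 87.0 CPM (7-day), with a log2 ratio of 3-day to 1-day of -1.69 (interval -1.73 to -1.66). It was found in 100% and 92.3% of thinned cells, and 81.7% of 3-day cells lay below the 10th percentile of 1-day cells. *LGALS1* was at 7.03, 20.7, 62.6 and 160.5 CPM in the same order (1.60, interval 1.47 to 1.73). *LGALS3BP*, the binding protein of galectin-3, was at 25.5 and 42.6 CPM (0.74). The HLA class I and peptide loading genes were within 2-fold, all 13 of them, with 12 ratios above 0 and a median of 0.40, and *TAPBP*, which edits the peptides loaded, was at 37.2 and 68.6 CPM.

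**Figure D5:**
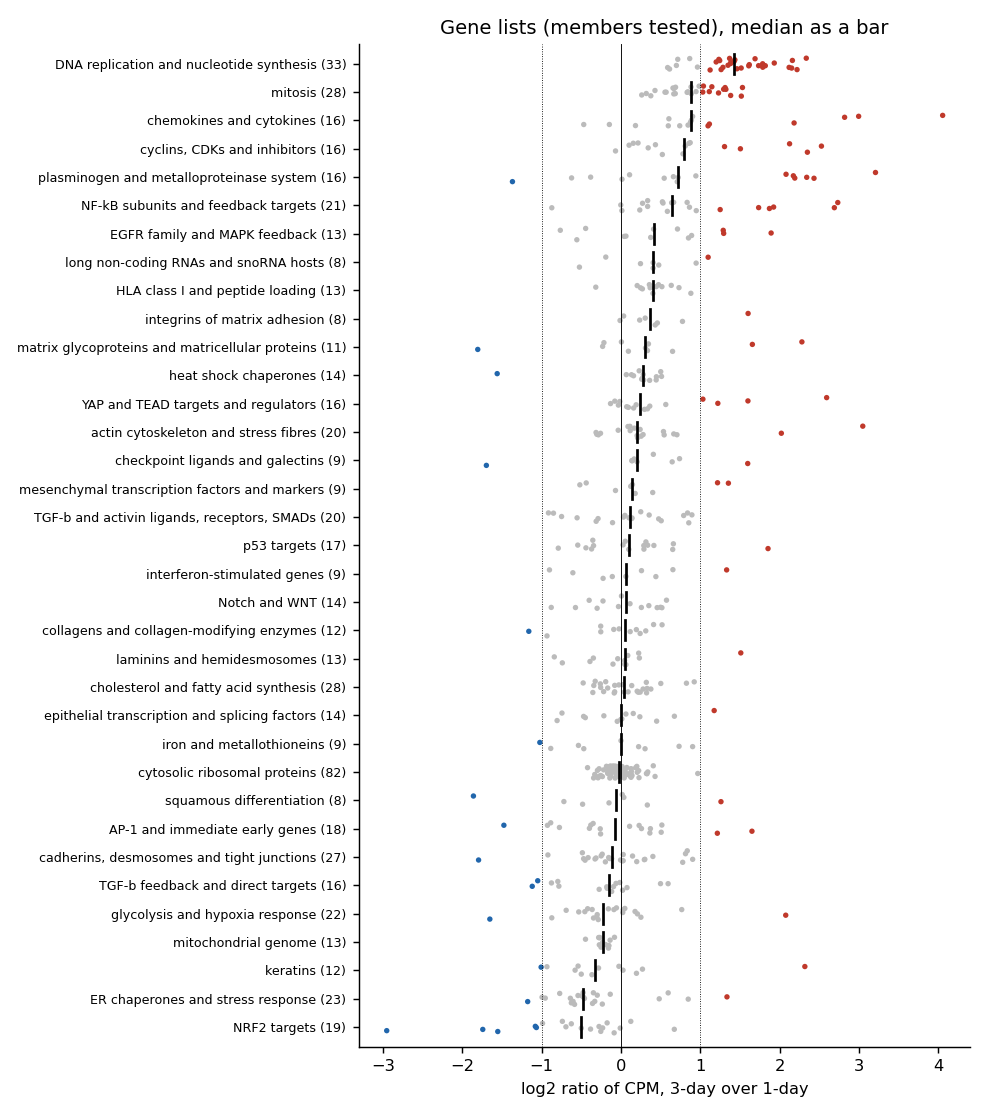
Each point is a gene, with the log2 ratio of CPM (3-day over 1-day) on the x axis and the lists with at least 8 genes compared on the y axis (number compared in brackets). Red and blue mark genes at least 2-fold higher or lower and the bar is the median, which runs from -0.50 for NRF2 targets to 1.43 for DNA replication.

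Other lists held few genes past 2-fold. None of the 28 cholesterol and fatty acid synthesis genes, the 14 Notch and WNT genes, the 7 S100 genes, the 82 ribosomal protein genes or the 4 complement genes compared was 2-fold apart. The complement genes had a median log2 ratio of 0.48, with 3 ratios above 0 and 1 below (-0.87). For their sum, 84.3% of 3-day cells lay above the median 1-day cell, but that sum was mostly *CD59*. The median 1-day and 3-day cell held 3.99 and 5.94 UMIs per 10000 of the list, and 3.25 and 5.06 of *CD59* alone. The 13 genes of the mitochondrial genome were also within 2-fold but all had ratios below 0 (median -0.23), together with the lower mitochondrial share of 3-day cells given above. Of 22 glycolysis and hypoxia genes, the lactate carrier *SLC16A3* was higher (5.68 and 23.96 CPM) and *NDRG1* lower (26.7 and 8.49 CPM). A single gene was past 2-fold among the 17 p53 targets (*FAS*, higher), the 9 interferon-stimulated genes (*OAS3*, higher) and the 8 non-coding RNAs (*SNHG12*, higher). The same held for the 9 iron and metallothionein genes (*SLC40A1*, lower) and the 6 ovarian markers (*LCN2*, lower). Over all genes compared 4.3% were at least 2-fold higher and 2.39% lower, so counts in lists this small say little about the lists. Of 8 squamous genes *PDZK1IP1* was higher and *KLK6* lower, and of 11 matrix glycoproteins *MATN2* was lower.

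The genes that differed between day 1 and day 3 were set against the 7-day and Ctrl libraries, which this ratio does not use. Of the 405 genes higher at 3-day, 154 (38.0%) were at least 2-fold higher at 7-day than in Ctrl and 3 (0.741%) lower, against 11.4% and 4.27% of all genes compared. Of the 225 genes lower at 3-day, 139 (61.8%) were at least 2-fold lower at 7-day than in Ctrl and 15 (6.67%) higher. The median log2 ratios of 7-day to Ctrl were 0.42, -1.33 and 0.11 for the higher, the lower and all genes. The higher genes outside the 154 and the 3, replication genes among them, had a 7-day level within 2-fold of Ctrl. Most of all genes compared did so too, so this is not particular to the higher set.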

How the data were processed

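OVCA420 cells were profiled by 3′ droplet single-cell RNA-seq (10x Genomics). The authors processed reads in Cell Ranger 2.0.1 against GRCh38 and deposited the raw UMI counts, not normalized. Only the first cells of each matrix in barcode order were used here (36.3% of the listed 1-day and 31.6% of the listed 3-day cells), so the sums are not the full depth of a library, and the last cell, which was incomplete, was dropped. The filter on genes removed no cell and that on mitochondrial UMIs removed 8 and 7. The 200-gene limit is that of the study and the 20% limit was set here. UMIs were summed per library and scaled to CPM in Python 3.11.15 (scipy 1.17.1), with exact Poisson, conditional binomial (Clopper-Pearson) and binomial 95% intervals, all of which cover counting error only. Doublets were called with Scrublet in scanpy 1.11.5 and retained. Phases used the lists of Seurat 5.3.0, and TMM factors came from edgeR 4.0.16. The scripts were tested on simulated counts.

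The genes named are the 12 of highest and the 12 of lowest ratio, in each of 38 gene lists up to 6 members past 2-fold and the most abundant one, and 5 genes that the study names. Other list members are named as examples after their values were seen. The members and lists were chosen with earlier results of these data known. Where a symbol had more than 1 identifier, the one with the most UMIs kept it. Positions are those of GENCODE release 44. Motifs of AP-1, NRF2, SMAD and TEAD factors were searched as well, in more lists. The E2F motif was in 4 of 24 mitosis promoters (16.7%) and the SMAD motif CAGACA in 2 of 13 promoters of TGF-β feedback genes (15.4%, against 16.8% of all). Lists of which under 80% of members matched a promoter are not reported. Regression of cell cycle, depth and mitochondrial share, which the study applied, was not used. Results for a few genes are not reported here.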

Additional observations from a re-analysis of the deposited data

How the results depend on the processing

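With 1 library per time point no replicate could be left out. No paired analysis was possible because each time point has 1 library and the labels give no shared replicate numbers. The counts of genes at least 2-fold higher and lower depended on the limits chosen. They were 677 and 540 with a minimum mean of 1 CPM, 156 and 94 with 20 CPM, 1257 and 613 at 1.5-fold, and 116 and 73 at 3-fold. TMM scaling gave 344 and 255, and G1 cells only 284 and 222, of which 227 and 181 were among the 405 and 225. Among the log2 ratios of the 138 named genes under the other settings, 1030 stayed within the counting interval and 350 left it. Of the 103 genes past 2-fold 0 changed sign, and of the other 35 there were 4 that did, namely *KIAA0101* of the replication list (0.59, but -0.45 in G1 cells) and *KRT17*, *CRCT1* and *BCL3*, whose ratios lay between -0.14 and 0.20 in all settings. *CCL2* shifted most, to 5.47 after thinning. Under at least 1 setting *ID2*, *KRT15*, *LCN2*, *AMOTL2*, *IL11*, *CDK1*, *UBE2C*, *TOP2A*, *AKR1C2*, *SLC40A1*, *HSPA5* and *SNHG12* came within 2-fold. In G1 cells, 18 of 26 replication genes, 3 of 11 mitosis genes and 10 of 17 chemokines compared were at least 2-fold higher. Over all cells 33 replication and 28 mitosis genes were compared. G1 cells were called by low levels of many of the same replication and mitosis genes, so the counts for those 2 lists are not a separate check. The cause of these shifts was not tested. The minimum mean of 5 CPM was a limit set here, and rarer genes were not compared in the main setting.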

Other observations

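Abundant genes outside the gene lists also differed. Of 63 genes past 2-fold with at least 100 CPM in either library, 39 were in no list and not named by the rule, 19 higher and 20 lower at 3-day, and those below were picked after their values were seen. Secreted and lipid-binding proteins were among the higher ones. *SERPINA1* (α1-antitrypsin) was at 3.27 (Ctrl), 76.2 (1-day), 321.6 (3-day) and 399.4 CPM (7-day). The fatty acid carrier *FABP5* was at 162.6, 242.8, 972.4 and 598.4 CPM in the same order, a log2 ratio of 3-day to 1-day of 2.00. The protease inhibitor *TFPI2* was at 59.4 CPM at 1-day and 213.9 CPM at 3-day, and the hyaluronan receptor *CD44* at 41.9 and 136.7 CPM. The CDK subunits *CKS2* and *CKS1B* were at 69.3 and 185.4 CPM and at 139.7 and 306.5 CPM, with 123.7 and 293.2 CPM in Ctrl. Most of the 19 higher genes were likewise lower at 1-day than in Ctrl, though not *SERPINA1*, *FABP5*, *TFPI2*, *GADD45A* or *MAP2K1*. *PSMC3IP*, with the largest ratio of the 19 (2.72), was at 92.7 (Ctrl), 16.2 (1-day), 107.3 (3-day) and 111.4 CPM (7-day).

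The lower ones included conjugating enzymes and exporters. *SULT2B1*, a sterol sulfotransferase, was at 118.6 CPM at 1-day and 22.8 CPM at 3-day (-2.38), and at 45.4 CPM before treatment and 7.998 CPM by 7-day. *ABCC3*, an exporter of conjugates, was at 136.0 and 32.2 CPM (-2.08), *CES1*, a carboxylesterase, at 189.0 and 68.0 CPM, *PTGR1* at 121.3 and 39.7 CPM and *CBR1* at 143.1 and 68.3 CPM. In Ctrl *ABCC3*, *CES1*, *PTGR1* and *CBR1* were at 202.6, 202.4, 411.0 and 674.3 CPM. The urothelial plaque protein *UPK1B* was at 272.1 and 111.3 CPM and the ion transport regulator *FXYD3* at 618.3 and 267.6 CPM. *DAAM1*, an actin-nucleating formin, was at 15.9 (Ctrl), 228.2 (1-day), 111.8 (3-day) and 74.8 CPM (7-day), and *CXXC5* was at 92.8, 299.5, 119.5 and 45.0 CPM, so that both were highest at 1-day.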
